A study of Homo sapiens with 8 samples.

Results

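F-box proteins are the interchangeable subunits that give SCF ubiquitin ligases their substrates, and their RNA was measured here in leukemia cells before and after the cells became resistant to auxin-induced degradation. The genes were chosen by name, as protein-coding genes whose symbol begins with FBXL, FBXW or FBXO followed by a digit, plus *SKP2*, *BTRC* and *CCNF*, which carry older names. This gave 64 genes among the 60754 genes and spike-in sequences listed, and 49 of them were expressed enough to be tested. *KDM2A*, *KDM2B* and *FBH1* encode F-box proteins too, but their symbols fall outside the rule, and they are described with the SCF partners.

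In an SCF ligase, the scaffold CUL1 holds the RING protein RBX1 at its far end and the adaptor SKP1 at its near end. The F-box, a short protein motif, binds SKP1, and the rest of the F-box protein binds the substrate, so that the substrate is ubiquitinated and, in most cases, degraded. Leucine-rich repeats mark the FBXL class, WD40 repeats mark the FBXW class, and the FBXO class holds the proteins with other domains. Each receptor must bind SKP1 to enter a ligase, and the CAND1 exchange factor lets receptors take turns on CUL1. The auxin-inducible degron adds a further receptor, the plant F-box protein OsTIR1, which uses the same human SKP1 and CUL1. OsTIR1 RNA was not analysed here.

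The cells were SEM, an established line of human B-cell leukemia with a *KMT2A* rearrangement (KMT2A-r). In all groups both alleles of *CTCF* carried a miniAID-mClover3 tag at the 3′ end, and a lentivirus with the MND promoter expressed the AID2 mutant of OsTIR1 linked to a Zeocin resistance gene. Clone C17.2 and Clone C3.2 were each taken as untreated parental cells and as resistant cells, with 2 libraries per group and 8 in all. Resistant cells had spent 36 days in 1 μM 5-Ph-IAA, the auxin analog, together with 100 μg/ml Zeocin, and then 48 h without drug, by the study's methods. The labels give the 36 days but give Zeocin as with or without, name no washout, and also describe an HA-MBNL1 virus without tying it to a library. By the study's account, Clone C17.2 resistant cells carried a truncated CTCF that lacked the degron, and Clone C3.2 resistant cells carried a missense change within miniAID. Each state is 1 selected culture of 1 clone, and nothing in the labels says that the libraries of a group came from separate cultures, so p-values measure the spread between these libraries, which may be technical. The column names of the clones begin with numbers from separate ranges, whose meaning the labels do not give, so clone and whatever these numbers mark cannot be told apart. In bulk RNA, fewer cells with a transcript and less of it per cell cannot be told apart either.

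Values are TPM, a relative abundance corrected for gene length that sums to the same total in every library. Levels can therefore be set side by side across genes, but library depths are not known and no value has a counting error. Protein-coding genes accounted for 36.0% to 43.3% of the TPM of a library. For tests, libraries were brought to a common scale by a trimmed mean of log2 ratios (factors of 0.893 to 1.16), and these values are called scaled TPM. Log2(scaled TPM + 1) was tested with limma over the 15614 genes that reached 1 TPM in any library, with a threshold of 0.05 on the two-sided p adjusted over all of them by the Benjamini-Hochberg method. Fold changes on this scale understate the change of low genes, and SE stands for their standard error. The B-lineage markers *CD79A*, *CD79B*, *PAX5* and *EBF1* were present in every library, *CD3E*, *CD14*, *HBB* and *EPCAM* were at 0.25 TPM or less, and the myeloid gene *LYZ* was at 0.47 to 0.66 TPM in parental and 0.97 to 2.18 TPM in resistant libraries, without passing the threshold. Of these B-lineage markers *CD79A* and *CD79B* fell in both clones and *PAX5* rose in Clone C3.2, with log2 fold changes of -1.51 and -1.03 for *CD79B*. Their part in the results on F-box genes was not tested.

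The family was expressed at moderate levels. The mean over the 8 libraries was at least 10 TPM for 20 of the tested F-box genes, between 1 and 10 TPM for 28, and under 1 TPM for 1, *FBXO16*. The median was 9.04 TPM, beside 12.4 TPM over all tested protein-coding genes. *FBXO11* had the highest mean at 40.5 TPM, followed by *FBXO38* at 34.8 TPM, *SKP2* at 28.8 TPM, *FBXO5* at 28.5 TPM and *FBXO7* at 28.4 TPM. The last 3 of these lay closer together than their own spread over libraries. Libraries of a group differed little, with a median coefficient of variation of 5.39% for tested F-box genes. The plot of levels by library shows the points of the 4 groups close together for most genes, from *FBXO11* down to *FBXO16*.

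**Figure D1:**
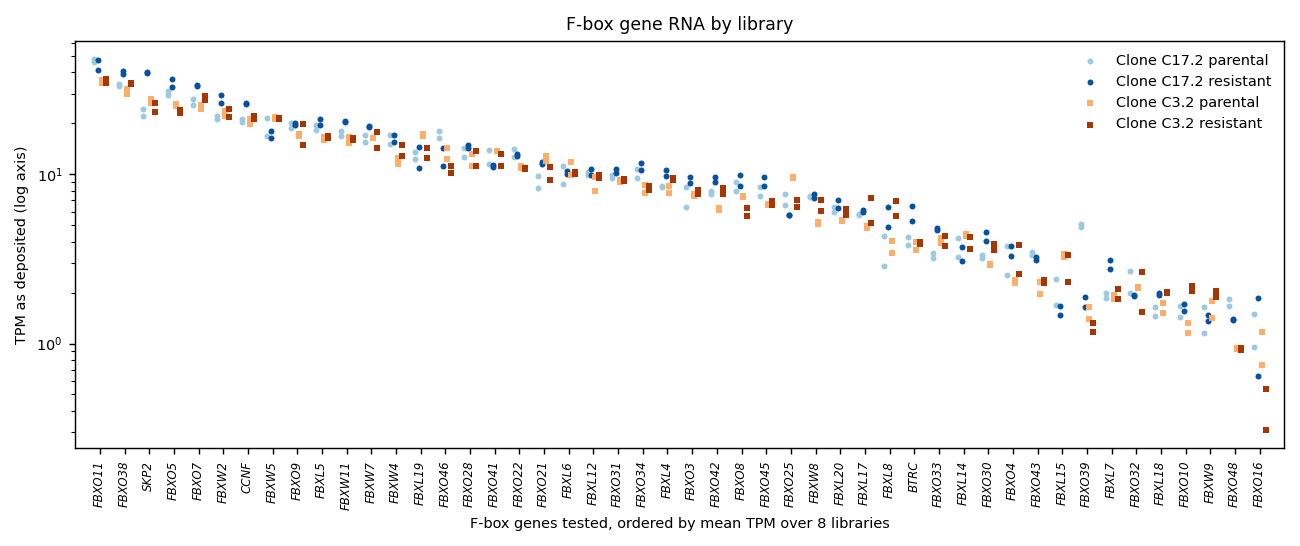
TPM as deposited (log axis) of 48 of the 49 tested F-box genes in each of the 8 libraries, ordered by their mean over the libraries, with a colour per group and a point per library. For most genes the groups lie close together, from *FBXO11* with a mean of 40.5 TPM downward, whereas *FBXO39* has its Clone C17.2 parental points well above the rest.

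The other 15 F-box genes were not tested, because none passed 0.85 TPM in any library. They were *FBXL2*, *FBXL13*, *FBXL16*, *FBXL22*, *FBXW10*, *FBXW12*, *FBXO2*, *FBXO6*, *FBXO15*, *FBXO17*, *FBXO24*, *FBXO36*, *FBXO40*, *FBXO44* and *FBXO47*. Of these, 9 stayed at or under 0.1 TPM in every library, and *FBXO17* was listed at 0 in all 8. Several of them are known from other tissues, such as *FBXO2* in neurons and *FBXO40* in muscle. *FBXO2*, *FBXO44* and *FBXO6* lie next to each other within 37337 bases of chromosome 1 (GRCh38), and all of them were among these low genes. Apart from such clusters the family is scattered, with members on 20 chromosomes.

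As a sum of scaled TPM, F-box RNA hardly moved. The scaled TPM of the 64 genes added up to 540 ± 4.74 (SD, n = 2) in Clone C17.2 parental cells and 537 ± 1.27 (SD, n = 2) in Clone C17.2 resistant cells. In Clone C3.2 the sum was 566 ± 3.25 (SD, n = 2) in parental and 544 ± 7.35 (SD, n = 2) in resistant cells. The libraries of the C3.2 parental group, at 564 and 568, both lay above those of the resistant group, at 549 and 539, whereas in Clone C17.2 the groups overlapped. With 2 libraries against 2, an exact permutation test cannot go below p = 0.333, so no test was made on these sums. Without the scaling, the sums were 551 ± 28.7 and 611 ± 11.5 TPM (SD, n = 2 each) in parental and resistant cells of Clone C17.2, and 514 ± 14.4 and 517 ± 25.7 TPM in those of Clone C3.2. As a share of all protein-coding TPM, which does not depend on the scaling, F-box genes took 0.136% in parental and 0.143% in resistant cells of Clone C17.2, and 0.135% and 0.139% in those of Clone C3.2. Both resistant libraries lay above both parental ones in each clone. In Clone C17.2 they were at 0.1433% and 0.143% against 0.1368% and 0.135%. In Clone C3.2 they were at 0.1399% and 0.1385% against 0.1343% and 0.1352%, the other way from the scaled sum. With libraries rescaled to protein-coding TPM, the median log2 fold change of all genes was also above 0, at 0.069 and 0.0846 in the 2 clones.

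SKP1, the adaptor that each of these receptors needs, rose in Clone C17.2 while the scaled sum of the receptors held its level. *SKP1* RNA was at 93.2 and 84.9 TPM in the parental and 149 and 162 TPM in the resistant libraries of Clone C17.2, a log2 fold change of 0.64 (SE 0.044, adjusted p = 0.000262, limma). In Clone C3.2 it was at 112 and 115 TPM in parental and 121 and 113 TPM in resistant libraries, a log2 fold change of -0.02 (adjusted p = 0.83 from limma). Per TPM of summed F-box RNA, *SKP1* went from 0.163 and 0.160 in the parental libraries of Clone C17.2 to 0.247 and 0.262 in the resistant libraries. The same ratio was 0.223 and 0.219 in parental and 0.227 in both resistant libraries of Clone C3.2. The range of the Clone C17.2 resistant libraries thus lay above that of the other 6. *SKP1* shares 210 exonic bases with *TCF7* on the opposite strand, and whether the counting used strand is not given in the sources used here, so reads from that stretch cannot be told apart.

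**Figure D2:**
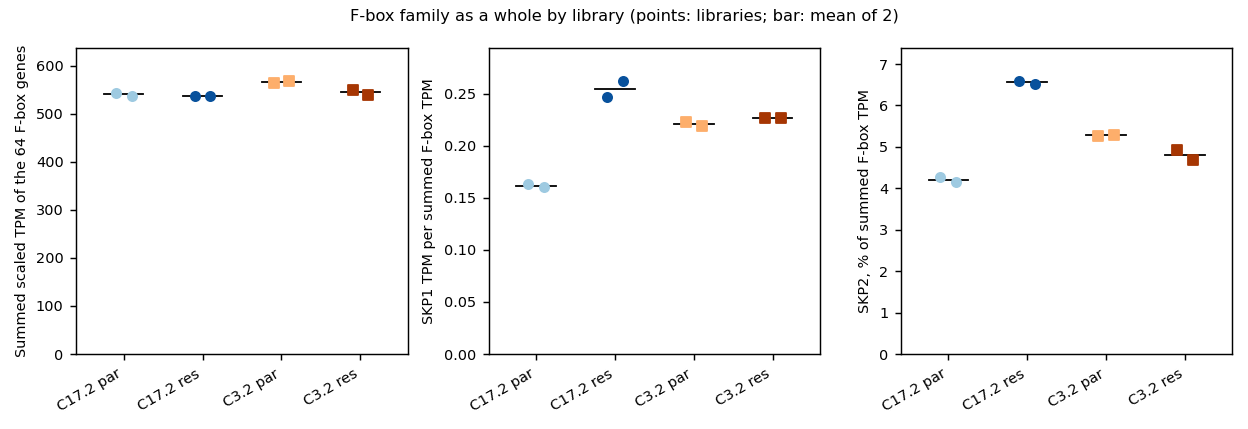
Values by library (points) with the mean of 2 (bars) for the summed scaled TPM of the 64 F-box genes, the *SKP1* TPM per summed F-box TPM, and *SKP2* as a percentage of summed F-box TPM. The sums lie between 536 and 568 in all groups, the *SKP1* ratio is highest in the Clone C17.2 resistant libraries at 0.247 and 0.262, and the *SKP2* share goes from 4.21% to 6.56% in Clone C17.2 and from 5.28% to 4.81% in Clone C3.2.

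Resistant cells of Clone C17.2 were compared with their parental cells to ask which receptors differ after selection. Of 49 tested F-box genes 9 passed the threshold, or 18.4%, where 27.3% of all genes did. The higher genes were *SKP2*, *FBXO33* and *CCNF*, 3 of 49 against 13.4% of all genes, and the lower genes were *FBXO39*, *FBXO46*, *FBXO25*, *FBXO41*, *FBXO11* and *FBXO22*, 6 of 49 against 13.9%. The median log2 fold change of the 49 was -0.05, beside 0 over all genes. Of the 49, 34 changed by less than 0.2 on the log2 scale, which was not counted over all genes. The split into higher and lower genes depends on the scaling. On TPM as deposited, 13 of 49 F-box genes passed as higher, beside 24.7% of all genes, and 1 as lower. The median of all genes lay at 0.14 there, and that of the F-box genes at 0.10, below it. With libraries rescaled to their protein-coding TPM, 9 of 49 passed as higher, beside 20.1% of all genes, and 2 as lower. *SKP2* was higher and *FBXO39* lower past the threshold under all 16 alternatives tried, 8 in the processing and 8 that each left out a library, whereas the other 7 calls were each lost under some of them.

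**Figure D3:**
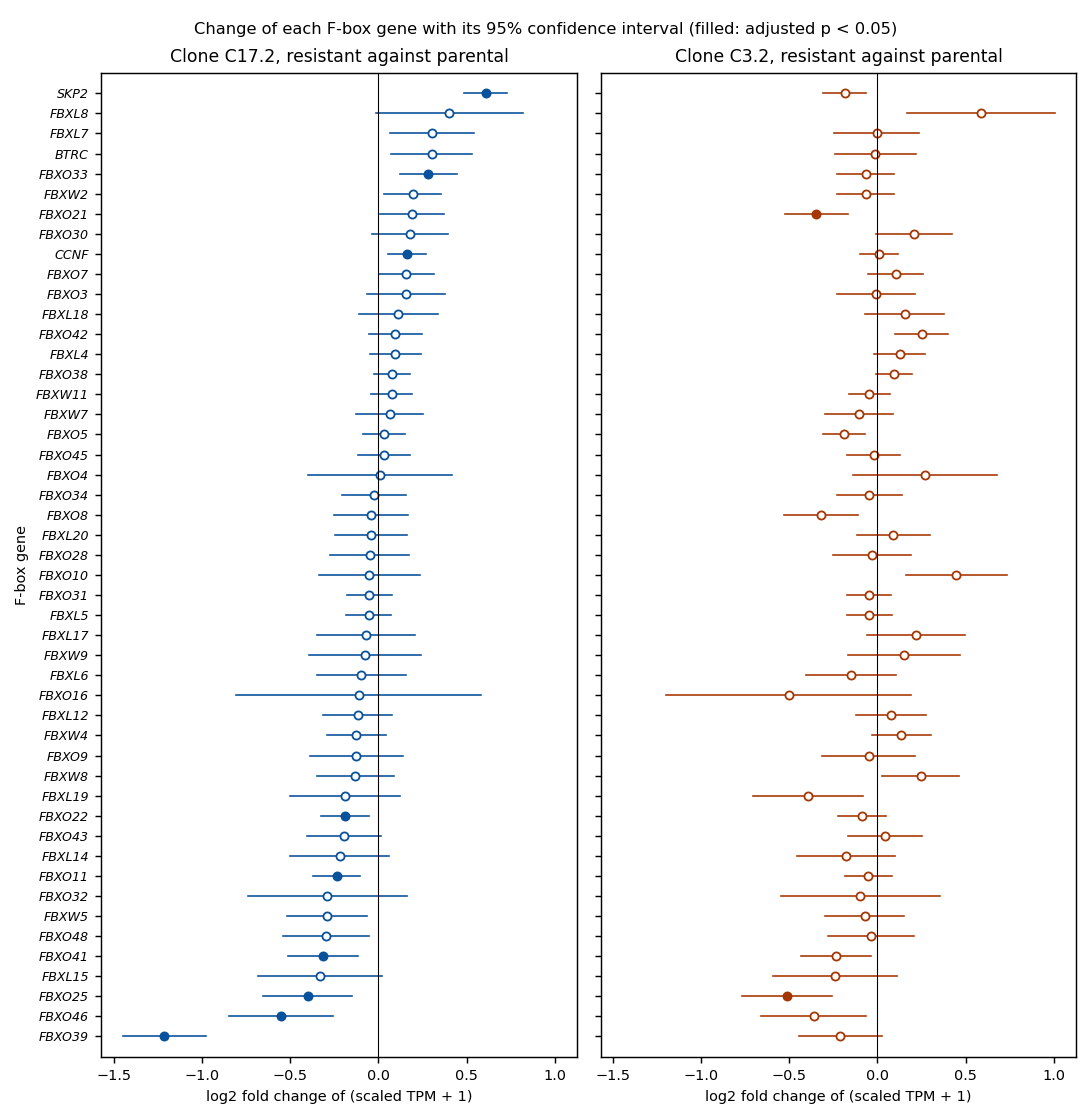
Log2 fold change of (scaled TPM + 1), resistant against parental cells, of 48 of the 49 tested F-box genes in Clone C17.2 (left) and Clone C3.2 (right), with 95% confidence intervals from limma and filled points where the adjusted p is under 0.05. *SKP2* at 0.61 and *FBXO39* at -1.21 stand at the ends in Clone C17.2, and most other genes lie within 0.2 of 0 in each clone.

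Among the leucine-rich repeat receptors, none fell past the threshold in Clone C17.2, beside 13.9% of all genes. Of the 14 tested, 1 rose past it, beside 13.4% of all genes. This was *SKP2* (ENSG00000145604.15), on the forward strand of chromosome 5 from 36151989 to 36196849 in GRCh38, with 10 exons. SKP2 directs the degradation of the cell cycle inhibitor p27 (*CDKN1B*) and of the replication licensing factor CDT1. Its RNA was at 24.4 and 22.0 TPM in the parental and 39.8 and 40.4 TPM in the resistant libraries of Clone C17.2. Scaled, the group means were 22.7 and 35.2, a 1.55-fold rise, and the log2 fold change was 0.61 (SE 0.050, adjusted p = 0.000501, limma). In Clone C3.2 *SKP2* was at 26.5 and 27.7 TPM in parental and 26.4 and 23.4 TPM in resistant libraries. The resistant libraries lay below the parental ones, by little in 1 of them, and the log2 fold change of -0.19 (95% interval -0.31 to -0.07) did not pass (adjusted p = 0.064 from limma), although it did without resistant library 1 of Clone C3.2. Across the family, *SKP2* took 4.21% ± 0.0863 (SD, n = 2) of F-box TPM in Clone C17.2 parental cells and 6.56% ± 0.0495 (SD, n = 2) in resistant cells, and 5.28% and 4.81% in those of Clone C3.2. It moved from behind *FBXO5* and *FBXO7* to a level beside *FBXO38* in the Clone C17.2 resistant libraries. *SKP2* shares 365 exonic bases with *NADK2* on the opposite strand, whose log2 fold change was -0.10 in Clone C17.2 (adjusted p = 0.205 from limma) and -0.36 in Clone C3.2 (adjusted p = 0.0116 from limma).

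The upstream sequence of *SKP2* is given with that of *CCNF*, which also rose in Clone C17.2, and that of *FBXO39*, which fell the most. These are reference stretches (RefSeq promoters on GRCh38.p14) on the forward strand, cut to bases before the start that no annotated exon covers, with capitals for matches on either strand to CCAAT (the NF-Y box), TTGGCGC and TTCCCGC (E2F sites), CACGTG (the E-box) and GGCGGG (the GC box), which may overlap. The *SKP2* stretch is chr5:36151888-36151988, the *CCNF* stretch chr16:2429197-2429393 and the *FBXO39* stretch chr17:6776117-6776214.
SKP2: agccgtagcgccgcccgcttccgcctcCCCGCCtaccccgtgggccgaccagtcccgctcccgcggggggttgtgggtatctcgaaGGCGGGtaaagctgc
CCNF: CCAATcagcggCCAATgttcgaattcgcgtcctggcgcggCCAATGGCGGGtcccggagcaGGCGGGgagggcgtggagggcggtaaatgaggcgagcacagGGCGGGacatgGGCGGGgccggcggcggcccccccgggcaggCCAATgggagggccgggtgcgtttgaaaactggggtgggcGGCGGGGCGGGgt
FBXO39: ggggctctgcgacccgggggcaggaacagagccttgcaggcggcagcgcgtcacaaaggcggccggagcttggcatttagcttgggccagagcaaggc

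The *CCNF* stretch held 4 CCAAT boxes and 6 GC boxes, the *SKP2* stretch held 2 GC boxes, and the *FBXO39* stretch held none of these letters. The uncut promoter window of *FBXO39*, of 300 bases, did hold a GC box, which is not within the stretch shown. A promoter window of 300 bases was found for 49 of the 64 F-box genes, 35 of them tested. Of these 49, 38 (77.6%) held a GC box, beside 44.7% of 27305 promoters of the same length. Those promoters were not limited to protein-coding genes, as the F-box genes were, so the 2 sets differ in gene type too. The median GC content of the F-box windows was 67.7%, beside 58.3% over all promoters. CCAAT stood in 15 (30.6%, beside 35.7% of all), an E2F site of either kind in 8 (16.3%, beside 9.33%) and an E-box in 4 (8.16%, beside 7.43%). These counts describe the letters in the windows and do not show that a factor binds there.

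None of the other 13 leucine-rich repeat receptors passed the threshold in Clone C17.2 or Clone C3.2, beside 27.3% and 11.4% of all genes. Some did under other settings. In Clone C17.2 *FBXL7* passed as higher as deposited, with rescaling to protein-coding TPM, with quantile normalization and with no intensity trend. *FBXL4* passed as higher there as deposited, and *FBXL8* passed as higher in Clone C3.2 with rescaling. *FBXL4* and *FBXL7* are named after their values were seen. *FBXL5*, whose protein senses iron and removes the iron regulatory protein IREB2, was at 16.04 to 21.15 TPM in all 8 libraries, with log2 fold changes of -0.05 in both clones (95% intervals -0.18 to 0.07 and -0.17 to 0.08). These intervals measure the spread between libraries at 1 scaling. Over the processing alternatives the value in Clone C17.2 reached 0.0993, outside its interval. *FBXL17*, which removes BTB proteins that have paired wrongly, was at 4.84 to 6.18 TPM in 7 libraries and 7.26 TPM in the other, Clone C3.2 resistant 1. Its log2 fold change was -0.07 in Clone C17.2 and 0.22 in Clone C3.2, neither past the threshold (adjusted p = 0.709 and 0.278 from limma). Leaving out a library moved the value in Clone C3.2 between 0.04 and 0.40, and without resistant library 2 of that clone both it and the difference between the clones passed. *FBXL8*, named after its values were seen, had the highest log2 fold change of the family in Clone C3.2, 0.59 (adjusted p = 0.0839 from limma), with 3.41 and 4.02 TPM in parental and 6.96 and 5.70 TPM in resistant libraries.

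None of the 8 tested WD40 receptors passed the threshold in Clone C17.2 or Clone C3.2, beside 27.3% and 11.4% of all genes. Some did under other settings. In Clone C17.2 these were *BTRC*, *FBXW2* and *FBXW11* as deposited, *BTRC* and *FBXW2* with rescaling to protein-coding TPM, *BTRC* with quantile normalization or without resistant library 1, and *FBXW5*, as lower, without parental library 2. In Clone C3.2 it was *FBXW8* without resistant library 1. *FBXW2*, *FBXW5* and *FBXW8* are named after their values were seen. *BTRC* and *FBXW11* encode the paired receptors that recognize phosphorylated IκBα and β-catenin. *BTRC* was at 4.24 and 3.84 TPM in parental and 5.26 and 6.46 TPM in resistant libraries of Clone C17.2, a log2 fold change of 0.30 (95% interval 0.07 to 0.53), and it missed the threshold (adjusted p = 0.0595 from limma). Its groups did not overlap there, whereas in Clone C3.2 all 4 libraries were between 3.59 and 4.00 TPM. *FBXW11* was the more abundant of the pair, at 15.3 to 20.7 TPM, and had log2 fold changes of 0.08 and -0.05. *FBXW7*, the receptor for MYC, cyclin E and NOTCH1 and a tumor suppressor in lymphoid leukemia, was at 14.2 to 19.2 TPM, with log2 fold changes of 0.06 in Clone C17.2 (95% interval -0.13 to 0.26) and -0.10 in Clone C3.2 (95% interval -0.29 to 0.09). The ratio of *FBXW7* to *SKP2* TPM was 0.702 and 0.709 in Clone C17.2 parental and 0.481 and 0.476 in resistant libraries, beside 0.589 to 0.672 in the 4 libraries of Clone C3.2.

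The remaining calls fell in the FBXO class. In Clone C17.2, 2 of its 27 tested genes rose and 6 fell, beside 13.4% and 13.9% of all genes. *CCNF* encodes cyclin F, the protein after which the F-box was named, which targets RRM2, CCP110 and E2F1. Its scaled TPM was 20.1 and 20.7 in parental and 23.1 and 22.7 in resistant libraries of Clone C17.2, a log2 fold change of 0.16 (SE 0.045, adjusted p = 0.0399, limma). The groups did not overlap, but the rise was small, and the call was kept under 5 of 8 processing alternatives and 2 of 8 that left out a library. *FBXO33* was at 3.27 and 3.22 scaled TPM in parental and 4.18 and 4.14 in resistant libraries of Clone C17.2, a log2 fold change of 0.28 (SE 0.067, adjusted p = 0.0237, limma), kept under 6 of 8 and 4 of 8. In Clone C3.2 neither moved past the threshold, with log2 fold changes of 0.01 for *CCNF* and -0.07 for *FBXO33*.

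*FBXO39* (ENSG00000177294.7), known as a cancer/testis antigen, fell the most of all F-box genes. It lies on the forward strand of chromosome 17 from 6776215 to 6797101 in GRCh38, with 4 exons. Clone C17.2 parental libraries held 4.89 and 5.08 TPM, and the 6 other libraries held between 1.17 and 1.88 TPM. In Clone C17.2 the resistant libraries, at 1.64 and 1.88 TPM, were 3.17-fold lower on scaled TPM, with a log2 fold change of -1.21 (SE 0.097, adjusted p = 0.000464, limma). Clone C3.2 parental cells were already at 1.39 and 1.65 TPM, and resistant cells at 1.32 and 1.17 TPM, a log2 fold change of -0.21 (95% interval -0.44 to 0.02) that did not pass (adjusted p = 0.221 from limma). The resistant libraries of Clone C17.2 thus lay near those of Clone C3.2. Its upstream neighbor *XAF1*, 568 bases away, fell in both clones, with log2 fold changes of -1.47 (adjusted p = 5.84e-05 from limma) and -0.86 (adjusted p = 0.0015 from limma), whereas the nearest tested gene on the other side, *RNASEK*, had log2 fold changes of 0.06 and 0.18 and did not pass.

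**Figure D4:**
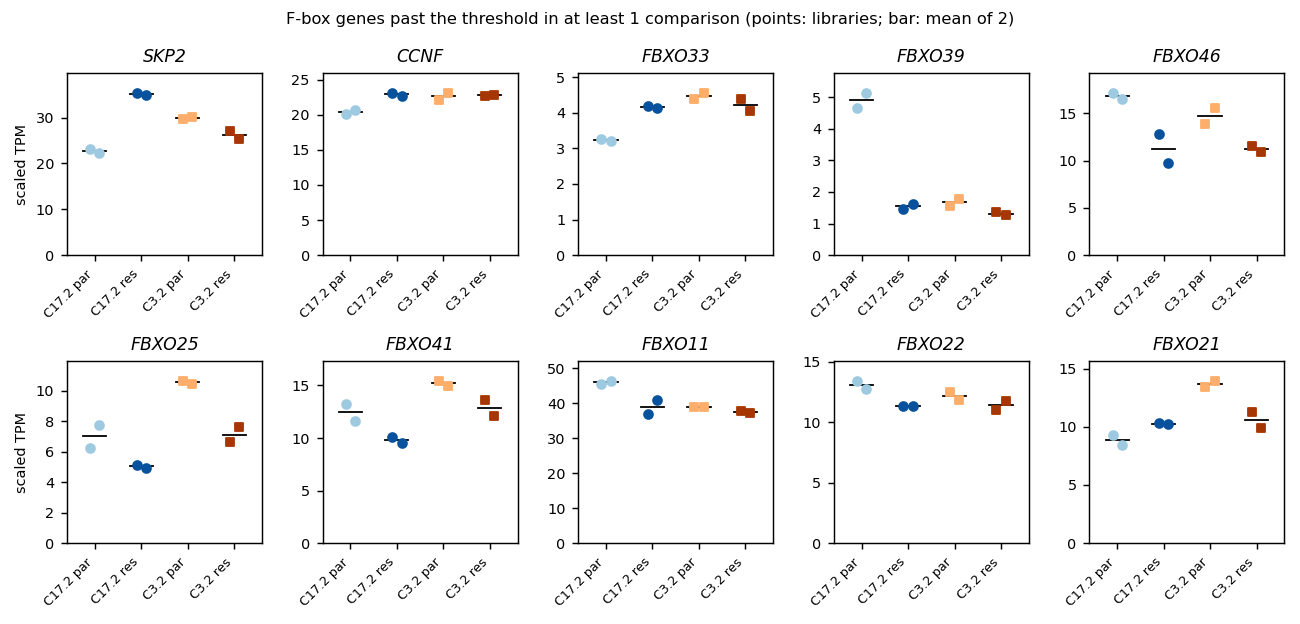
Scaled TPM of the 10 F-box genes past the threshold in at least 1 clone, by group, with a point per library and a bar at the mean of 2. Clone C17.2 resistant libraries lie above the parental ones for *SKP2*, *CCNF* and *FBXO33* and below them for *FBXO39*, *FBXO46*, *FBXO25*, *FBXO41*, *FBXO11* and *FBXO22*, and *FBXO21* goes opposite ways in the 2 clones.

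The 5 other genes that passed as lower in Clone C17.2 changed less. *FBXO46* was at 17.17 and 16.48 scaled TPM in parental and 12.83 and 9.71 in resistant libraries, a log2 fold change of -0.55 (SE 0.12, adjusted p = 0.0192, limma). It shares 510 exonic bases on the same strand with an unnamed gene, ENSG00000279407, at 6.99 TPM. *FBXO25*, a receptor for the mitochondrial protein HAX1, was at 6.23 and 7.77 scaled TPM in parental and 5.10 and 4.96 in resistant libraries, a log2 fold change of -0.40 (adjusted p = 0.0334 from limma). *FBXO41*, studied mainly in neurons, was at 13.3 and 11.7 in parental and 10.1 and 9.53 in resistant libraries on the same scale, a log2 fold change of -0.31 (adjusted p = 0.0327 from limma). The libraries of the groups did not overlap for any of these genes, but the *FBXO41* groups were close. Under 8 processing alternatives and 8 that left out a library, the calls were kept under 6 and 5 for *FBXO46*, 4 and 3 for *FBXO25*, and 4 and 3 for *FBXO41*.

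*FBXO11*, the most abundant receptor of the family, targets the germinal center repressor BCL6 for degradation and is mutated in B-cell lymphoma. As deposited, its TPM overlapped between the groups of Clone C17.2, with 47.8 and 45.9 in parental and 41.4 and 47.3 in resistant libraries. On scaled TPM the parental libraries, at 45.5 and 46.4, lay above the resistant ones, at 36.9 and 40.9, with a log2 fold change of -0.24 (SE 0.055, adjusted p = 0.0228, limma). The call was lost without scaling (adjusted p = 0.464 from limma) and with rescaling to protein-coding TPM (adjusted p = 0.0829 from limma), and also without either parental library, without resistant library 1, and with Clone C17.2 fitted alone. *FBXO11* on the reverse strand shares 4022 exonic bases with *MSH6* on the opposite strand, which was at 89.4 TPM on average and had log2 fold changes of -0.63 in Clone C17.2 and -0.60 in Clone C3.2. Since strand use is not given in the sources used here, the level and the fall of *FBXO11* are uncertain. In Clone C3.2 *FBXO11* was at 34.7 and 35.8 TPM in parental and 36.7 and 34.5 TPM in resistant libraries, a log2 fold change of -0.05. *FBXO22*, a receptor for the demethylase KDM4A and for BACH1, stood at the edge in Clone C17.2, with 13.4 and 12.8 scaled TPM in parental and 11.4 in both resistant libraries and a log2 fold change of -0.19 (adjusted p = 0.0494 from limma), and its call was kept under 1 of 8 processing alternatives and 2 of 8 that left out a library.

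In Clone C3.2, resistant cells differed from parental cells at fewer F-box genes. Of 49 tested genes 2 passed, or 4.08%, where 11.4% of all genes did, and both were lower, where 6.9% of all genes were. None passed as higher under limma, where 4.46% of all genes did, although 4 had an unadjusted p under 0.05 in that direction, and 4 passed with libraries rescaled to their protein-coding TPM. *FBXO25* was at 10.7 and 10.4 scaled TPM in parental and 6.61 and 7.60 in resistant libraries, a log2 fold change of -0.51 (SE 0.11, adjusted p = 0.03, limma). It was the 1 F-box gene lower past the threshold in both clones. *FBXO21*, whose protein targets EID1, was at 13.5 and 14.0 scaled TPM in parental and 11.3 and 9.94 in resistant libraries of Clone C3.2, a log2 fold change of -0.35 (SE 0.075, adjusted p = 0.0347, limma). In Clone C17.2 it was at 9.34 and 8.46 in parental and 10.3 in both resistant libraries on this scale, a log2 fold change of 0.19 (adjusted p = 0.111 from limma). The call of *FBXO25* in Clone C3.2 was kept under 6 of 8 processing alternatives and 2 of 8 that left out a library, and that of *FBXO21* under 3 and 1. Leaving out either parental library, or resistant library 2, of Clone C3.2 left no F-box gene past the threshold as lower.

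Overlap between the groups was also counted, with no test. On scaled TPM, both resistant libraries of Clone C17.2 lay above both parental libraries for 16 of the 49 genes, or 32.7%, beside 33.3% of all genes, and below them for 18, or 36.7%, beside 32.7%. In Clone C3.2 the counts were 12 above, or 24.5%, beside 27.8% of all genes, and 17 below, or 34.7%, beside 28.1%. Changes of at least 0.5 on the log2 scale were seen for 3 F-box genes in each clone. In 24 F-box genes the change stayed under 0.2 in both clones. Changes of these sizes were not counted over all genes, so these counts do not set the family apart.

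A change past the threshold in 1 clone does not show that the clones differ, so the difference between the changes was tested itself. It passed for 3 of 49 F-box genes, or 6.12%, where 9.9% of all genes passed. The log2 difference was above 0 for 2 of them, beside 4.91% of all genes, and below 0 for 1, beside 4.99%. *SKP2*, which passed as higher in Clone C17.2, had a log2 difference of 0.79 (95% interval 0.62 to 0.96, adjusted p = 0.00231 from limma). *FBXO39*, which passed as lower in Clone C17.2, had a log2 difference of -1.0 (95% interval -1.33 to -0.67, adjusted p = 0.00936 from limma). *FBXO21* differed by 0.54 (95% interval 0.28 to 0.79, adjusted p = 0.0286 from limma), with both resistant libraries above the parental ones in Clone C17.2 and below them in Clone C3.2. The differences of *SKP2* and *FBXO39* were kept under all 7 processing alternatives and all 8 that left out a library, and that of *FBXO21* under 5 and 1. For *FBXO33*, *CCNF*, *FBXO46*, *FBXO41*, *FBXO11* and *FBXO22*, which passed in Clone C17.2 alone, the difference between clones did not pass (adjusted p of 0.0707 to 0.697 from limma).

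Several well known receptors of the FBXO class did not pass the threshold in either clone, although 4 of them did under other settings. *FBXO7* and *FBXO38* passed as higher in Clone C17.2 as deposited and with rescaling to protein-coding TPM. In Clone C3.2 *FBXO38* passed with that rescaling, *FBXO10* with that rescaling or with no intensity trend, and *FBXO5*, as lower, without either resistant library of Clone C17.2. *FBXO5* encodes EMI1, the inhibitor of the anaphase-promoting complex, and was at 31.1 and 29.3 TPM in parental and 32.7 and 36.5 TPM in resistant libraries of Clone C17.2. In Clone C3.2 it was at 25.4 and 26.1 TPM in parental and 24.1 and 23.0 TPM in resistant libraries, a log2 fold change of -0.19 that came close (adjusted p = 0.0592 from limma). *FBXO7*, linked to parkinsonism and mitophagy, was at 27.8 and 25.7 TPM in parental and 33.3 and 33.6 TPM in resistant libraries of Clone C17.2, with log2 fold changes of 0.16 and 0.10 in the 2 clones (adjusted p = 0.123 and 0.346 from limma). The groups of *FBXO7* did not overlap in Clone C17.2 and overlapped in Clone C3.2 on scaled TPM. For *FBXO38*, a receptor for the checkpoint protein PD-1, the groups did not overlap in either clone, but the margins were small, with log2 fold changes of 0.08 and 0.09 (adjusted p = 0.241 and 0.217 from limma). *FBXO31*, which targets cyclin D1, was at 9.01 to 10.7 TPM, with log2 fold changes of -0.05 in both clones. *FBXO10*, which ubiquitinates BCL2, was low, at 1.33 and 1.15 TPM in parental and 2.03 and 2.20 TPM in resistant libraries of Clone C3.2, a log2 fold change of 0.45 that did not pass (adjusted p = 0.0628 from limma), and in Clone C17.2 its log2 fold change was -0.05.

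The partners of the receptors were read out beside them. The 22 tested genes were of the SCF core, its ubiquitin-conjugating enzymes and its regulators, together with the F-box genes *KDM2A*, *KDM2B* and *FBH1*. Of these 22, 9 passed as higher and none as lower in Clone C17.2, beside 13.4% and 13.9% of all genes, with a median log2 fold change of 0.15. Beside *SKP1*, these were *CUL1* (0.22, adjusted p = 0.0122), *RBX1* (0.26, adjusted p = 0.0088), the exchange factor *CAND1* (0.34, adjusted p = 0.004), the ubiquitin-like modifier *NEDD8* (0.60, adjusted p = 0.0309), the neddylation cofactor *DCUN1D1* (0.40, adjusted p = 0.0192), the conjugating enzymes *UBE2G1* (0.24, adjusted p = 0.0148) and *UBE2L3* (0.29, adjusted p = 0.00513), and *KDM2A* (0.28, adjusted p = 0.00596), all as log2 fold changes from limma. *KDM2A* is itself an F-box protein and a histone demethylase, and the F-box genes *KDM2B* and *FBH1* had log2 fold changes of 0.04 and 0.14 that did not pass. The count of higher partners was 8 to 12 over the 8 processing alternatives and 5 or 6 when a library of Clone C17.2 was left out, and at most 1 was lower. It was 5 without either parental library or without resistant library 2. *SKP1* passed under every alternative. The cofactor of SKP2, *CKS1B*, was at 66.6 and 64.3 TPM in parental and 82.1 and 79.1 TPM in resistant libraries, a log2 fold change of 0.14 that did not pass (adjusted p = 0.182 from limma).

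In Clone C3.2 none of the 22 partners passed the threshold as higher, beside 4.46% of all genes. *CDC34* and *UBE2R2*, the enzymes that extend ubiquitin chains on SCF substrates, passed as lower, beside 6.9% of all genes. They fell by 0.32 and 0.20 on the log2 scale (adjusted p = 0.0331 and 0.048 from limma). These calls were not stable. None of the partners was lower as deposited, with rescaling, with no filter, with no trend, with the clone fitted alone, or without either parental library of either clone or resistant library 2 of Clone C3.2, whereas 4 were lower without its resistant library 1. The median was -0.08, and 0.02 with rescaling to protein-coding TPM. The difference between the clones passed for 4 of the 22, *SKP1*, *CAND1*, *UBE2G1* and *UBE2L3*. Each had a log2 difference above 0, beside 4.91% of all genes. This count of 4 was 2 without any library of Clone C17.2 or either parental library of Clone C3.2, each left out by itself, and 3 with no intensity trend.

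The receptors of other cullin ligases had medians near 0 on scaled TPM, and their counts are to be read beside the 13.4% higher and 13.9% lower of all genes in Clone C17.2 and the 4.46% and 6.9% in Clone C3.2. For the KLHL genes, which serve CUL3, 1 of 22 tested passed as higher and 1 as lower in Clone C17.2, where their median was 0.02. As deposited 6 were higher and 1 lower there, with a median of 0.16, and with rescaling 4 and 1. Without either resistant library of Clone C3.2 4 were higher, and without parental library 1 of Clone C17.2 none was. *KLHL42* rose and *KLHL24* fell in both clones, and *KLHL6* and *KLHL23* also fell in Clone C3.2, where the median was 0.05, although 1 passed there without either of its parental libraries and none when that clone was fitted alone. For the DCAF genes, which serve CUL4, 2 of 13 passed as higher and 1 as lower in Clone C17.2, with medians of 0.05 and -0.01 in the 2 clones. As deposited 7 were higher and 0 lower in Clone C17.2, with a median of 0.21, and none passed there when any library of that clone was left out. For the ASB and SOCS genes, which serve CUL5 and CUL2, 1 of 10 passed, as lower, in Clone C17.2 and none in Clone C3.2 at the limma threshold, with medians of -0.04 and 0.04. As deposited 2 were higher and 0 lower in Clone C17.2.

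**Figure D5:**
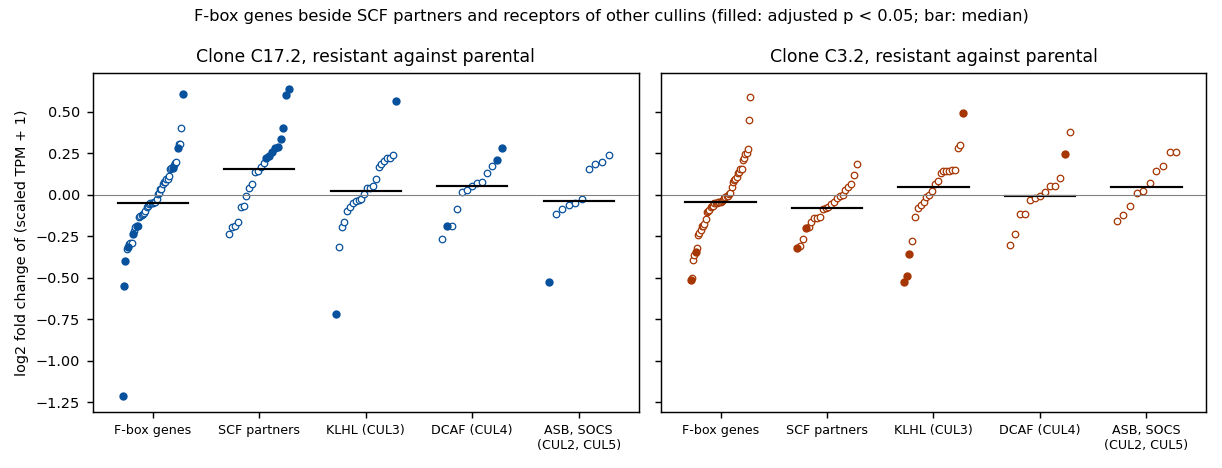
Log2 fold change of (scaled TPM + 1) of each tested gene, resistant against parental cells, for the 49 F-box genes, 22 SCF partners, 22 KLHL, 13 DCAF and 10 ASB or SOCS genes in Clone C17.2 (left) and Clone C3.2 (right), with filled points where the adjusted p from limma is under 0.05 and a bar at the median. The SCF partners, counted with the F-box genes *KDM2A*, *KDM2B* and *FBH1*, have the highest median in Clone C17.2, 0.15, with 9 filled points above 0. The receptor families have medians between -0.05 and 0.05.

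RNA of genes whose proteins are substrates of these receptors was read out beside them, although RNA is no measure of degradation. Of 28 tested genes, 5 passed as higher and 10 as lower in Clone C17.2, beside 13.4% and 13.9% of all genes, and 1 as higher and 8 as lower in Clone C3.2, beside 4.46% and 6.9%. The counts moved with the setting. As deposited they were 6 higher and 6 lower in Clone C17.2 and 0 and 4 in Clone C3.2, and with rescaling to protein-coding TPM 4 and 6 in Clone C3.2. In Clone C17.2 3 were higher without parental library 1 or resistant library 1, and 6 lower without parental library 2. In Clone C3.2 2 were lower without either of its parental libraries, and 3 without its resistant library 2 or with the clone fitted alone. For the substrates of SKP2, *CDT1* fell in both clones, from 82.8 and 70.7 TPM to 37.5 and 34.8 TPM in Clone C17.2 and from 47.4 and 52.0 TPM to 39.9 and 37.8 TPM in Clone C3.2, with log2 fold changes of -1.22 (adjusted p = 0.000141 from limma) and -0.41 (adjusted p = 0.0181 from limma). *CDKN1B* had log2 fold changes of 0.03 and -0.07 and did not pass. *CDKN1A*, a further SKP2 substrate, fell by 0.52 and 0.46 on the log2 scale (adjusted p = 0.00211 and 0.00918 from limma).

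*BCL6*, the substrate of FBXO11, fell in both clones by 0.96 and 1.17 on the log2 scale (adjusted p = 0.000695 and 0.00124 from limma). Of the FBXW7 substrates, *MYC* fell by 0.75 and 0.29 (adjusted p = 0.000433 and 0.0287 from limma), while *MCL1* rose by 0.47 in Clone C17.2 (adjusted p = 0.00104 from limma) and *NOTCH1* by 0.42 in Clone C3.2 (adjusted p = 0.048 from limma). *CCNE1*, *CCNE2* and *JUN* did not pass in either clone. Of the substrates shared by BTRC and FBXW11, *CTNNB1* rose by 0.41 in Clone C17.2 (adjusted p = 0.00143 from limma), *PDCD4* fell by 0.78 and 0.59 on the log2 scale (adjusted p = 0.00210 and 0.0148 from limma), and *NFKBIA* and *WEE1* did not pass in either clone. *CLSPN* had a log2 fold change of 0.24 (adjusted p = 0.0175 from limma) and *REST* of -0.35 (adjusted p = 0.0262 from limma) in Clone C17.2. *CDC25A* rose by 0.19 in Clone C17.2 (adjusted p = 0.0361 from limma) and had a log2 fold change of -0.26 in Clone C3.2 (adjusted p = 0.0281 from limma), and the difference between the clones passed (adjusted p = 0.0164 from limma). *IREB2*, the substrate of FBXL5, had log2 fold changes of 0.00 and -0.01 (adjusted p = 0.983 and 0.953 from limma). Of the substrates of cyclin F, *E2F1* fell in both clones by 0.21 and 0.31 on the log2 scale (adjusted p = 0.0253 and 0.0159 from limma), and *RRM2* and *CCP110* fell in Clone C17.2 by 0.17 and 0.34 (adjusted p = 0.0336 and 0.00812 from limma).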

How the data were processed

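RNA-seq of 8 libraries was analysed. The authors depleted ribosomal RNA, trimmed the reads (Trim Galore 0.6.3), aligned them to hg38 (STAR 2.7.9a) and quantified Gencode release 31 genes (RSEM 1.3.1). The deposited values are TPM, which are not scaled across libraries and keep no depth. The labels describe single-end and the methods paired-end reads. The study's own limma-voom test works on counts and was not repeated.

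Genes that reached 1 TPM in any library were kept. Each library was scaled by a trimmed mean of its log2 ratios to the average library (trims of 0.3 for ratios and 0.05 for abundance). Log2(scaled TPM + 1) was fitted with 4 groups and no covariate in limma 3.58.1 under R 4.3.3 (lmFit, contrasts.fit, eBayes with an intensity trend), by a script tested on simulated data. Contrasts were resistant against parental cells per clone, and the difference between these. Members and lists were chosen with earlier results of these data known. Genes named were those past a threshold (up to 15 per direction and clone), a set of well known receptors and the 5 most abundant, and any other is said to be chosen after its values were seen. Positions came from Gencode release 44, which held 99.5% of tested genes by identifier, and promoters from RefSeq. Tables and plots were made in Python 3.11.15 with pandas 2.3.3 and matplotlib 3.10.9. Results for 1 tested F-box gene are not reported here one by one, and it is left out of the plots that name each gene.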

Additional observations from a re-analysis of the deposited data

Results flagged for a closer look

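The change from parental to resistant cells differed between the clones for 3 F-box genes, by limma's test of the difference itself. *SKP2* had a log2 difference of 0.79, with a rise in Clone C17.2 and a log2 fold change of -0.19 that did not pass in Clone C3.2. *FBXO39* had a log2 difference of -1.0, with parental levels of 4.99 ± 0.134 TPM (SD, n = 2) in Clone C17.2 and 1.52 ± 0.184 TPM (SD, n = 2) in Clone C3.2. *FBXO21* had a log2 difference of 0.54, with 9.08 ± 1.03 TPM (SD, n = 2) in parental and 11.7 ± 0.198 TPM (SD, n = 2) in resistant cells of Clone C17.2, and 12.5 ± 0.615 and 10.1 ± 1.25 TPM (SD, n = 2 each) in those of Clone C3.2. Clone and the number ranges of the column names cannot be told apart in these differences.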

How the results depend on the processing

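Counts of F-box genes past the threshold moved with the scaling and with single libraries. Those higher in Clone C17.2 (3) became 13 on TPM as deposited, 9 on TPM rescaled over protein-coding genes and 1 with the clone fitted alone, and 1 to 3 without a library (1 without either parental library or resistant library 2 of Clone C17.2). Those lower in Clone C17.2 (6) became 1, 2 and 2 under these settings, 2 with no filter, and 2 to 6 without a library: 2 without parental 1 or resistant 2 of Clone C17.2, and 3 without its parental 2 or resistant 1 or without either parental library of Clone C3.2. Those higher in Clone C3.2 (0) became 1 as deposited, 4 rescaled and 1 with no intensity trend, and 0 to 1 without a library (1 without either resistant library of Clone C3.2). Those lower in Clone C3.2 (2) became 1 as deposited, 1 rescaled, 0 with no filter, 1 with no trend and 0 with the clone alone, and 0 to 4 without a library: 0 without either parental library or resistant 2 of Clone C3.2, 1 without either parental library of Clone C17.2, and 4 without its resistant 1. The median log2 fold change became 0.0993 as deposited and 0.0289 rescaled in Clone C17.2, and 0.0173 and 0.0527 in Clone C3.2, each under the median of all genes in that setting. The causes were not tested beyond the scalings' own shift of all genes. Of the 3 differences between clones, those of *SKP2* and *FBXO39* passed under every processing alternative. That of *FBXO21* was lost as deposited and with no filter, and its value lay between 0.454 and 0.618 when a library was left out. Values for single genes were pooled over the 3 comparisons and all alternatives, with *SKP1*, *CUL1* and *RBX1* included. Of these values, 1019 kept their side of the threshold, which includes values that were never past it. Another 89 had been past it and lost it, and 20 gained it. The 1019 therefore do not measure how stable the calls were. No paired analysis was possible because the labels give parental and resistant libraries no shared replicate numbers.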
